A study of Mus musculus with 30 samples.

Results

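CC chemokines were followed across 6 cell populations sorted from mouse mammary tumours. The 10 genes Ccl2, Ccl3, Ccl4, Ccl6, Ccl7, Ccl8, Ccl9, Ccl12, Ccl22 and Ccl24 were chosen by name from the 14118 genes of the raw count matrix, and all 10 were present. The tumours were mammary adenocarcinomas of FVB/N-Tg(MMTVPyVT)634Mul/J mice, in which a mammary tumour virus promoter drives the polyoma middle T antigen, mainly in mammary epithelium. They had a volume of 750 mm3, and there was 1 tumour from each of 5 mice, numbered 5, 6, 8, 10 and 11. Every group therefore shares the transgene, and no healthy tissue was compared. The age of the mice is not given in the sources used here.

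Each tumour gave 1 bulk RNA-seq library per population, so n = 5 in each group. Cancer-associated fibroblasts were CD45- CD31- CD90+ and were divided into CAF1 (CD34-) and CAF2 (CD34+). Endothelial cells were CD45- CD31+. Tumour-associated macrophages were CD45+ F4/80+ and were divided into CD206hi (CD206+ with low MHC class II), CD206neg (CD206- with low MHC class II) and CD206pos (CD206+ with high MHC class II). Library totals ran from 6292411 to 11957076 counts, so that 3 counts corresponded to 0.251 to 0.477 CPM (counts scaled by the library total). The summed level of 10 macrophage markers averaged 37754 to 53564 CPM in the 3 macrophage groups, against 36.7 CPM in CAF2, 120 CPM in CAF1 and 357 CPM in endothelial libraries. None of the 9 T, NK and B cell markers looked for were among the genes of the matrix. The CD206neg libraries of tumours 6 and 8 stood apart from their label, with H2-Aa, an MHC class II gene, at 7874 and 2778 CPM against 20.2 to 391 CPM in the other 3. Results that involve CD206neg were therefore also computed without them.

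Chemokines are small secreted proteins that draw leukocytes along concentration gradients through G protein-coupled receptors. The CC class takes its name from a pair of adjacent cysteines near the start of the mature protein. In tumours, CC ligands are known for recruiting monocytes through the receptor Ccr2, and macrophages and fibroblasts are both known as sources of them. Atypical receptors such as Ackr1 and Ackr2 bind CC ligands without classical signalling.

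The coding stretch that gives the class its name is shown for 9 of the genes, because it is the feature the rule rests on. Each line gives 30 bases of coding sequence, 5′ to 3′ on the coding strand, read from mm10 with the GENCODE M21 annotation. The capitals mark the adjacent cysteine codons.

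Ccl2: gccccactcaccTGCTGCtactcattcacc
Ccl7: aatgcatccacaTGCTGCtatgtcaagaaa
Ccl12: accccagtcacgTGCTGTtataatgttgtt
Ccl8: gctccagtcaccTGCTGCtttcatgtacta
Ccl4: cctcccacttccTGCTGTttctcttacacc
Ccl9: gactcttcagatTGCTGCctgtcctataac
Ccl6: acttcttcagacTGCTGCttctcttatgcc
Ccl22: gaagacagtatcTGCTGCcaggactacatc
Ccl24: atcccctcatctTGCTGCacgtcctttatt

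Among these 9 genes, the codon pair lay in exon 2 of 3 in 7. In Ccl6 and Ccl9, which have 4 exons, it lay in exon 3. The stretches for Ccl2 (chr11:82036494-82036523), Ccl7 (chr11:82046526-82046555), Ccl12 (chr11:82102622-82102651) and Ccl8 (chr11:82116044-82116073) are on the plus strand. Those of Ccl9 (chr11:83575914-83575943) and Ccl6 (chr11:83589374-83589403) are on the minus strand, and that of Ccl4 (chr11:83663470-83663499) is on the plus strand. Ccl22 (chr8:94746922-94746951, plus strand) and Ccl24 (chr5:135572653-135572682, minus strand) lie outside these clusters. The RefSeq spans of Ccl3 and Ccl4, on opposite strands, overlap by 755 bases, while their GENCODE exons share 0 bases. The strand setting of the counting is not given in the sources used here, so reads of that overlap cannot be assigned with certainty.

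The 10 genes took up very different shares of the RNA in the 6 populations. They made up 4.30% ± 1.72 of all counts in CD206hi (SD, n = 5) and 4.13% ± 1.35 in CD206pos. In CD206neg they made up 0.851% ± 0.261. Their share was 0.940% ± 0.337 in CAF2, 0.424% ± 0.321 in CAF1 and 0.0210% ± 0.0182 in endothelial libraries. The CD206hi and CD206pos libraries, at 2.08% or more, lay above all other libraries, of which the highest reached 1.51%. In bulk libraries, a larger share of producing cells and more RNA per cell cannot be told apart.

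**Figure D1:**
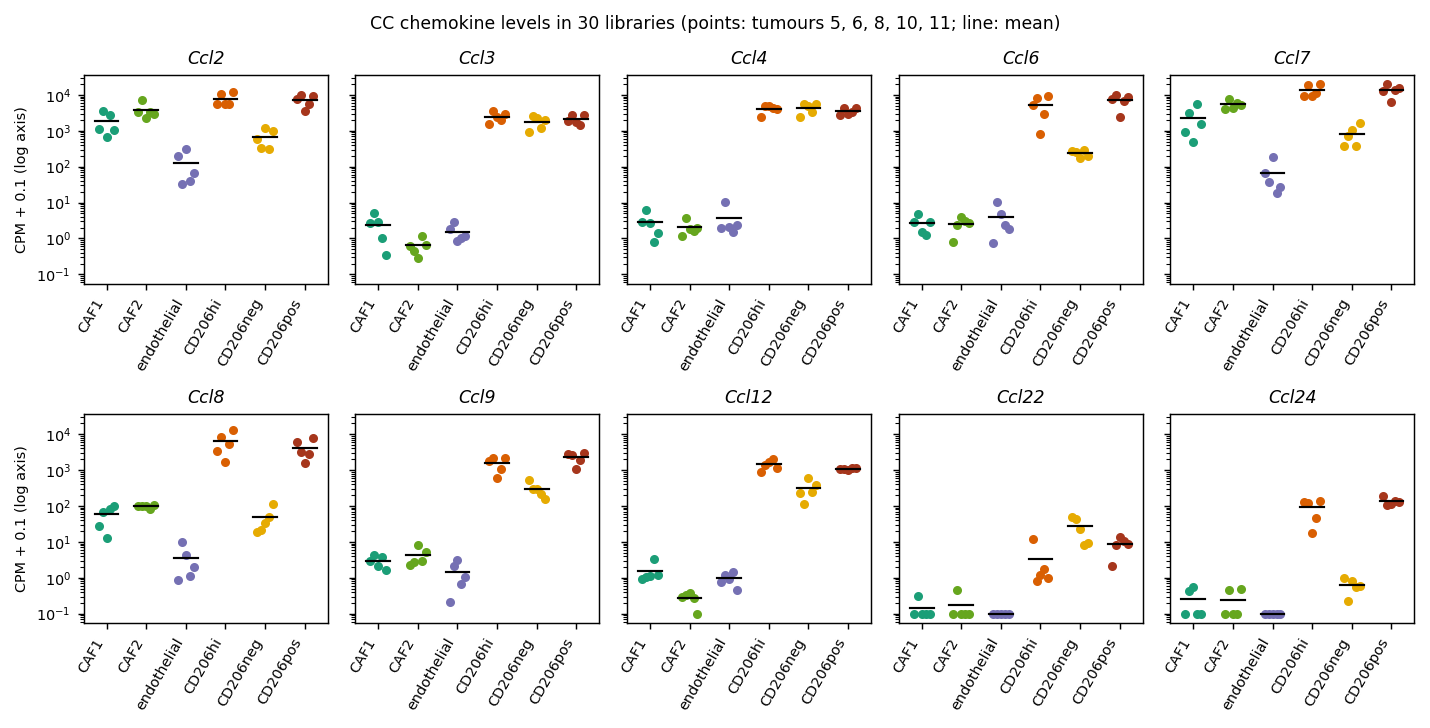
CPM + 0.1 (log axis) of each CC chemokine in the 30 libraries by population, with 1 point per tumour and a line at the mean. Most genes were highest in macrophages, with Ccl2 and Ccl7 at 484 CPM or more in both fibroblast groups. Endothelial libraries had no count of Ccl22 or Ccl24.

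Ccl2, Ccl7, Ccl12 and Ccl8 form the monocyte chemoattractant group and are neighbours within 1 cluster on chromosome 11. Ccl2, Ccl7 and Ccl12 act on monocytes through Ccr2. Ccl8 is known in the mouse as a ligand of Ccr8. All 4 rose in CD206hi and in CD206pos over CD206neg, in 5 of 5 tumours each and with no overlap between the groups. Ccl2 had 5643, 10803, 5491, 5730 and 11772 CPM in CD206hi of tumours 5, 6, 8, 10 and 11. In the same order Ccl2 had 7639, 9657, 3638, 5688 and 9104 CPM in CD206pos. In CD206neg it had 592, 326, 1179, 317 and 957 CPM. Every CD206+ library of Ccl2 thus lay above every CD206neg library. Ccl2 rose by a log2 fold change of 3.49 ± 0.55 (SE) for CD206hi over CD206neg (edgeR's quasi-likelihood F test, Benjamini-Hochberg adjusted p = 0.000427). For CD206pos over CD206neg it was 3.32 ± 0.55 (edgeR adjusted p = 0.000531).

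Ccl7 had the highest mean level per kilobase of exon of the 10 genes in CD206hi and in CD206pos. Its CPM in tumours 5, 6, 8, 10 and 11 were 9446, 18448, 9139, 11182 and 20066 in CD206hi, 12959, 19660, 6166, 13294 and 16077 in CD206pos and 388, 709, 1047, 366 and 1604 in CD206neg. Tumour 8 had the lowest value in both CD206+ groups, and the lowest CD206+ library was still above the highest CD206neg library. Ccl7 rose by a log2 fold change of 3.85 ± 0.63 in CD206hi (edgeR adjusted p = 0.000593) and 3.83 ± 0.63 in CD206pos (edgeR adjusted p = 0.000548).

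Of these 4 genes, Ccl8 had the largest log2 fold change. It had 3298, 8558, 1663, 5434 and 13212 CPM in CD206hi of tumours 5, 6, 8, 10 and 11, and 5932, 3152, 1542, 2815 and 7720 CPM in CD206pos. CD206neg had 18.5, 21.99, 34.5, 50.8 and 116 CPM. Within CD206hi the Ccl8 level varied widely between tumours, with a mean of 6433 ± 4584 CPM (SD, n = 5). Over CD206neg, the log2 fold change of Ccl8 was 6.92 ± 0.90 in CD206hi (121-fold, edgeR adjusted p = 8.51e-05) and 6.22 ± 0.87 in CD206pos (74.5-fold, edgeR adjusted p = 0.000138). Ccl12 ranged from 888 to 2046 CPM in CD206hi, from 976 to 1126 CPM in CD206pos and from 112 to 591 CPM in CD206neg. Its log2 fold changes were smaller, at 2.09 ± 0.38 (edgeR adjusted p = 0.00139) and 1.66 ± 0.38 (edgeR adjusted p = 0.00661).

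Ccl6 and Ccl9 are rodent chemokines that act through Ccr1 and are neighbours on chromosome 11. Both rose in the 2 CD206+ groups. Ccl6 had 5294, 8210, 838, 2976 and 9255 CPM in CD206hi of tumours 5, 6, 8, 10 and 11. In CD206pos it had 7527, 9959, 2463, 6794 and 8761 CPM, and in CD206neg 269, 260, 173, 286 and 199 CPM. Tumour 8 had the lowest Ccl6 level in all 3 macrophage groups. Over CD206neg, the log2 fold change of Ccl6 was 4.39 ± 0.67 in CD206hi (edgeR adjusted p = 0.000322) and 4.78 ± 0.68 in CD206pos (edgeR adjusted p = 0.00015). Ccl9 ranged from 616 to 2199 CPM in CD206hi, from 1097 to 3014 CPM in CD206pos and from 160 to 516 CPM in CD206neg. It rose by 2.35 ± 0.45 (edgeR adjusted p = 0.00208) and 2.88 ± 0.46 (edgeR adjusted p = 0.000413) on the log2 scale.

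Ccl24, a ligand of the eosinophil receptor Ccr3, was nearly absent from CD206neg. It had 131, 124, 17.9, 45.5 and 138 CPM in CD206hi of tumours 5, 6, 8, 10 and 11, and 196, 106, 115, 134 and 128 CPM in CD206pos. The CD206neg libraries had 0.910, 0.132, 0.717, 0.445 and 0.502 CPM, at most 9 counts. No CD206+ library came near the CD206neg range. The log2 fold change of Ccl24 was 7.31 ± 0.60 in CD206hi (edgeR adjusted p = 4.32e-06) and 7.80 ± 0.61 in CD206pos (edgeR adjusted p = 1.84e-06). These sizes rest on few CD206neg counts.

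Ccl3 and Ccl4, which draw macrophages and T cells, did not follow this pattern. Ccl4 had 2452, 4762, 4999, 4273 and 4106 CPM in CD206hi of tumours 5, 6, 8, 10 and 11, and 2810, 4421, 3025, 3247 and 4241 CPM in CD206pos. CD206neg had 2414, 5494, 4906, 3244 and 5423 CPM, so the 3 ranges overlapped. The log2 fold change of Ccl4 over CD206neg was -0.30 ± 0.43 in CD206hi (edgeR adjusted p = 0.777) and -0.52 ± 0.43 in CD206pos (edgeR adjusted p = 0.455). Ccl3 ranged from 1502 to 3507 CPM in CD206hi, from 1410 to 2784 CPM in CD206pos and from 934 to 2535 CPM in CD206neg. It was higher than in CD206neg in 5 of 5 tumours in CD206hi and in 4 of 5 in CD206pos, with overlapping ranges. Its log2 fold changes were 0.24 ± 0.46 (edgeR adjusted p = 0.845) and 0.01 ± 0.46 (edgeR adjusted p = 0.988).

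Ccl22, a ligand of Ccr4 known from dendritic cells and macrophages, went the other way at a low level. It had 50.2, 44.1, 22.7, 7.90 and 9.29 CPM in CD206neg of tumours 5, 6, 8, 10 and 11. In CD206hi it had 11.8, 0.699, 1.08, 1.67 and 0.891 CPM, and in CD206pos 2.08, 8.26, 14.0, 10.49 and 8.39 CPM. CD206hi was below CD206neg in 5 of 5 tumours, although tumour 5 of CD206hi overlapped the CD206neg range. Ccl22 was lower in CD206hi by a log2 fold change of -3.37 ± 0.69 (edgeR adjusted p = 0.00359). For CD206pos its difference was -1.83 ± 0.64 and missed the threshold (edgeR adjusted p = 0.0631). It passed when the CD206neg library of tumour 10 was left out (edgeR adjusted p = 0.0469, range over all alternatives 0.0469 to 0.269).

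Counted over the 10 genes, 7 were higher and 1 lower in CD206hi than in CD206neg, where 6.14% of all 11052 genes tested were higher and 3.9% lower (10% in either direction, edgeR adjusted p under 0.05). The median log2 fold change was 2.92 over the 10 genes and 0.02 over all genes. In CD206pos against CD206neg, 7 were higher and 0 lower, beside 8.85% and 5.85% of all genes (14.7% in either direction). The median was 3.10 over the 10 genes and 0.02 over all genes. The 2 comparisons share their CD206neg libraries and are not independent. Without the CD206neg libraries of tumours 6 and 8 the same 8 and 7 genes passed, beside 4.75% and 8.11% of all genes. With tumour as a block they also passed, beside 16.2% and 25.3% of all genes.

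**Figure D2:**
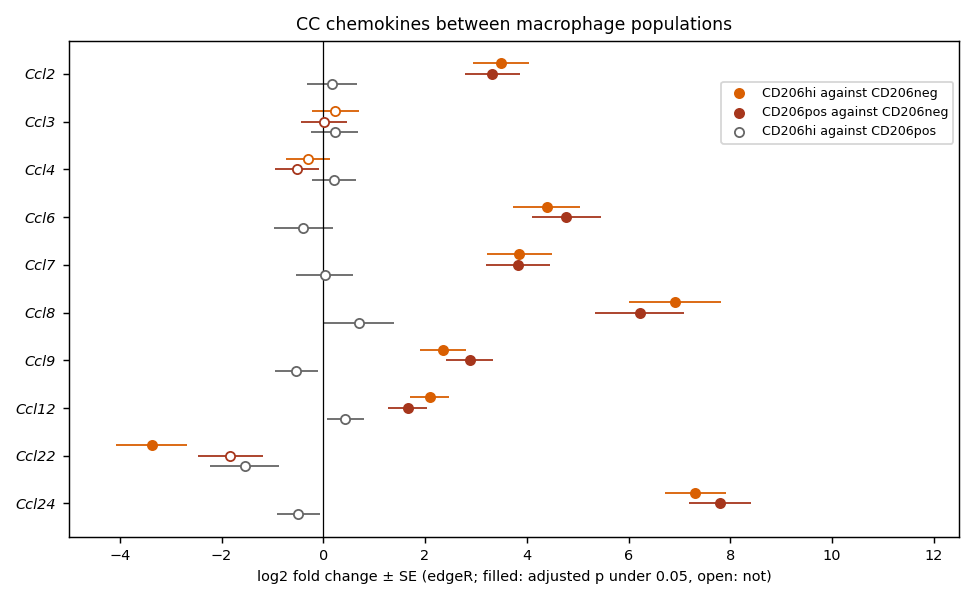
Log2 fold change with SE (x axis) of each CC chemokine in the 3 comparisons between macrophage populations, 5 libraries per population, with filled points where the edgeR adjusted p was under 0.05. Of the 10 genes, 7 lie to the right in both comparisons with CD206neg, Ccl3 and Ccl4 lie near 0, and Ccl22 lies to the left.

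Between the 2 CD206+ groups, CD206hi and CD206pos, none of the 10 genes passed by edgeR, beside 0.19% of all genes (21 of 11052, with 0.00905% higher and 0.181% lower in CD206hi). At an unadjusted p under 0.05 there were 801 genes, Ccl22 among them. DESeq2 called 83 genes but none of the 10. The largest difference was that of Ccl22 at -1.54 ± 0.67 (edgeR adjusted p = 0.635). Ccl22 passed when tumour 5 was left out of the fit, with a log2 fold change of -3.15 (edgeR adjusted p = 0.0387, range over all alternatives 0.0387 to 1). Ccl8 differed by 0.70 ± 0.70, Ccl9 by -0.53 ± 0.43 and Ccl24 by -0.49 ± 0.41 on the log2 scale. Ccl9 was lower in CD206hi in 5 of 5 tumours but its ranges overlapped.

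Other gene lists were read beside these comparisons. The summed level of 17 dissociation response genes, known to be induced during tissue digestion, averaged 31996 CPM in CD206hi (20202 to 56371), 26076 CPM in CD206pos (16128 to 40748) and 16191 CPM in CD206neg (13115 to 19607). Of these genes 1 of 17 was higher in each comparison with CD206neg (Ier3) and 0 were lower. Over all genes, 6.14% and 8.85% were higher and 3.9% and 5.85% lower. Their median log2 fold change was 0.79 in CD206hi and 0.40 in CD206pos, beside 0.02 over all genes. With group means removed, Pearson's r of the chemokines with this sum ran from -0.14 for Ccl22 to 0.71 for Ccl8. The part of tissue digestion in the macrophage chemokine values was not tested. Of 16 NF-kB pathway genes, 3 were lower and 0 higher in CD206hi than in CD206neg, among them Il1b, which encodes an inflammatory cytokine (log2 fold change -1.64 ± 0.46, edgeR adjusted p = 0.0264). In CD206pos 1 of the 16 was higher and 0 lower. Of 11 genes of the macrophage response to IL-4, 7 were higher and 0 lower in each of the 2 groups, including the lectin Clec10a (5.03 ± 0.72 and 5.32 ± 0.73) and the scavenger receptor Cd163 (7.09 ± 0.79 and 7.33 ± 0.80). That list holds Mrc1, which encodes CD206, the protein used in the sort.

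Markers of monocytes and dendritic cells were also measured in the macrophage groups. The summed level of 6 monocyte markers averaged 2473 CPM in CD206hi (1283 to 3942), 2533 CPM in CD206pos (1159 to 4789) and 261 CPM in CD206neg (120 to 566). Of these, F13a1 made up 2028 CPM in CD206hi. Of 5 tested, 2 were higher in CD206hi and 5 in CD206pos than in CD206neg. Over all genes, 6.14% were higher and 3.9% lower in CD206hi, and 8.85% and 5.85% in CD206pos. The same monocyte marker sum averaged 5152 CPM in CAF2 and 1828 CPM in CAF1, so it is not particular to monocytes. Ly6c2, a defining marker of classical monocytes, was at or below 1.27 CPM in all 15 macrophage libraries. The 6 dendritic cell markers summed to 117 CPM in CD206hi (6.56 to 262), 142 CPM in CD206pos (33.1 to 233) and 18.6 CPM in CD206neg (12.2 to 21.99), so the CD206hi and CD206neg ranges overlapped. Of 4 tested, 1 was higher (Cd209a) and 1 lower (Ccr7) in CD206hi than in CD206neg, and 1 was higher (Cd209a) and 0 lower in CD206pos. Cd209a accounted for most of that level in CD206hi and CD206pos, while in CD206neg Ccr7 averaged 13.6 of the 18.6 CPM. Clec9a was at 0 in all CD206neg and CD206pos libraries. With group means removed, Pearson's r of the chemokines with the summed dendritic cell markers ran from -0.07 for Ccl12 to 0.92 for Ccl6. It was 0.89 for both Ccl9 and Ccl24. With the summed monocyte markers r ran from -0.25 for Ccl4 to 0.41 for Ccl24. The part of these marker genes in the chemokine differences was not tested.

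Levels of different genes were compared as CPM per kilobase of exon. In CD206neg, Ccl4 made up 55.8% ± 4.74 (SD, n = 5) of the summed level of the 16 CC ligands measured, and Ccl3 a further 19.7% ± 3.04. In CD206hi the largest shares were those of Ccl7 at 30.8% ± 1.12, Ccl8 at 20.4% ± 7.89 and Ccl2 at 17.5% ± 1.57. CD206pos was made up likewise of Ccl7 at 33.7% ± 4.58, Ccl2 at 17.4% ± 1.06 and Ccl8 at 15.9% ± 6.27. The per-kilobase level of Ccl4 itself was 6509 ± 2106 in CD206neg and 6240 ± 1513 in CD206hi, so its share differed while its level did not differ beyond the spread.

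**Figure D3:**
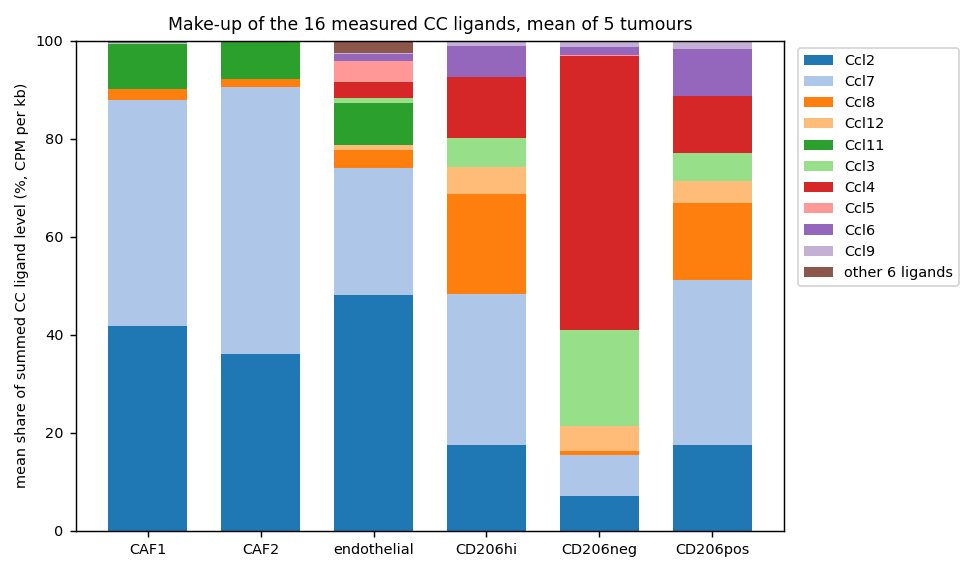
Mean share (percent, y axis from 0) of each CC ligand in the summed CPM per kilobase of the 16 measured CC ligands, by population, mean of 5 tumours. Ccl4 and Ccl3 fill most of the CD206neg bar, Ccl2 and Ccl7 most of both fibroblast bars. The bars show shares, not amounts.

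The fibroblasts held high levels of Ccl2 and Ccl7 and low levels of the other 8 genes. Ccl2 had 1106, 3512, 670, 2788 and 1087 CPM in CAF1 of tumours 5, 6, 8, 10 and 11, and 3367, 7197, 2313, 3405 and 2851 CPM in CAF2. Ccl7 had 905, 3097, 484, 5683 and 1542 CPM in CAF1, and 4015, 7802, 4209, 6101 and 5182 CPM in CAF2. For both genes CAF1 was the lower group in 5 of 5 tumours, and the ranges of the groups overlapped. The log2 fold change of CAF1 over CAF2 was -0.95 ± 0.53 for Ccl2 (edgeR adjusted p = 0.251) and -1.07 ± 0.60 for Ccl7 (edgeR adjusted p = 0.26).

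With tumour as a block, both passed the threshold, beside 20.1% of all genes. The blocked log2 fold changes were -1.115 for Ccl2 (edgeR adjusted p = 0.0327, range over all alternatives 0.0327 to 0.567) and -1.59 for Ccl7 (edgeR adjusted p = 0.0435, range 0.0435 to 0.452). Without the block, 0 of the 6 genes tested were called by edgeR or DESeq2, beside 19.5% of all 12149 genes (10.9% higher and 8.59% lower in CAF1). At an unadjusted p under 0.05 there were 3769 genes and 0 of the 6. The median log2 fold change was -0.46 over those 6 genes and 0.01 over all genes. Ccl8 ranged from 12.99 to 103 CPM in CAF1 and from 84.1 to 108 CPM in CAF2, and was lower in CAF1 in 5 of 5 tumours (log2 fold change -0.45 ± 0.52, edgeR adjusted p = 0.617).

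Ccl3, Ccl12, Ccl22 and Ccl24 were below the filter on low counts in the fibroblast comparison. Ccl12 had 0.806 to 3.26 CPM in CAF1 and 0 to 0.278 CPM in CAF2, with no overlap and at most 3 counts in a CAF2 library. Ccl3 had 0.245 to 5.13 CPM in CAF1 and 0.186 to 1.09 CPM in CAF2, which overlapped. Ccl22 and Ccl24 did not exceed 0.461 CPM in any fibroblast library. The most counts in a fibroblast library were 47 for Ccl3, 29 for Ccl12, 5 for Ccl24 and 3 for Ccl22.

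CAF1 and CAF2 also differed in markers of other cells. Over all genes tested, 10.9% were higher in CAF1. The summed level of 6 pericyte markers was 637 to 2425 CPM over the CAF1 libraries and 124 to 234 CPM over those of CAF2, and 6 of 6 were higher in CAF1. The sum of 7 epithelial markers was 259 to 4801 CPM over CAF1 libraries and 2.30 to 423 CPM over CAF2 libraries, and 5 of 7 were higher in CAF1. The 10 macrophage markers summed to 63.8 to 185 CPM in CAF1 and 23.3 to 67.5 CPM in CAF2, with 3 of 7 tested higher in CAF1. The part of these markers in the chemokine values was not tested. The 17 dissociation response genes, given above for macrophages, had their highest mean sums in fibroblasts. Over CAF1 libraries the mean was 44557 CPM (range 31848 to 58327). For CAF2 it was 43178 CPM (range 36835 to 54578). Endothelial libraries averaged 24181 CPM (range 22675 to 27371), and CD206neg 16191 CPM. Whether tissue digestion raised Ccl2 or Ccl7 in the fibroblasts was not tested.

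The fibroblast levels of Ccl2 and Ccl7 were set beside those of macrophage markers. The mean level of Ccl2 was 35.0% of the macrophage mean in CAF1 and 73.1% in CAF2. For Ccl7 the values were 25.0% and 58.3%. The complement genes C1qa, C1qb and C1qc, abundant in macrophages, reached 0.0351% to 0.0677% of their macrophage means in these 2 groups. Ccl3, Ccl4 and Ccl6 reached 0.0254% to 0.111%, near the level of those markers. Ccl8 lay between, at 1.64% in CAF1 and 2.75% in CAF2. Of the macrophage markers Mertk was the highest, at 13.8% in CAF1 and 4.63% in CAF2, and none of the other 9 exceeded 0.4997% (Cd14 in CAF1).

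**Figure D4:**
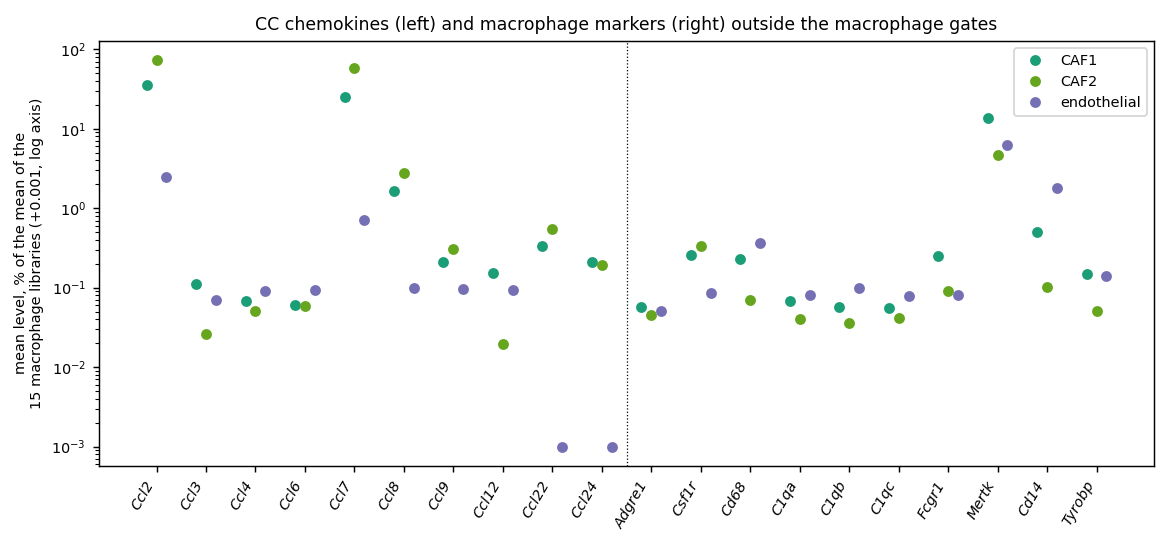
Mean level in CAF1, CAF2 and endothelial libraries (5 each) as percent of the mean of the 15 macrophage libraries (+0.001, log axis) for the 10 CC chemokines and 10 macrophage markers. Ccl2 and Ccl7 lie at 25.0% to 73.1% in the fibroblast groups, and Ccl3, Ccl4 and Ccl6 at 0.111% or less.

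Against the fibroblasts, 9 of the 10 genes were higher in macrophages, and 0 lower, beside 30.8% and 37.3% of all 13610 genes tested (68.1% in either direction). The median log2 fold change was 7.99 over the 10 genes and -0.10 over all genes. The differences were largest for Ccl3 (11.30 ± 0.54), Ccl4 (11.15 ± 0.57), Ccl12 (10.89 ± 0.42) and Ccl6 (10.09 ± 0.64), each with an edgeR adjusted p of 1.38e-14 or less. Ccl9 differed by 8.56 ± 0.46 (edgeR adjusted p = 3.43e-16). Ccl22 averaged 12.9 CPM in macrophages and at most 3 counts in a fibroblast library, and Ccl24 averaged 75.8 CPM and at most 5 counts. That Ccl24 mean came from the CD206+ groups, with 0.541 CPM in CD206neg. Ccl8 differed by 4.24 ± 0.57 (edgeR adjusted p = 1.15e-07).

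Ccl2 and Ccl7 differed less between the lineages, and in a way that depended on the macrophage group. The log2 fold change of macrophages over fibroblasts was 0.70 ± 0.39 for Ccl2 (edgeR adjusted p = 0.109) and 0.98 ± 0.43 for Ccl7 (edgeR adjusted p = 0.0432). With CD206neg alone on the macrophage side, an alternative added after the data were seen, both were lower in macrophages. Ccl2 was then at -1.58 (edgeR adjusted p = 0.014), Ccl7 at -1.58 (edgeR adjusted p = 0.0237) and Ccl8 at -0.15 (edgeR adjusted p = 0.857). With CD206hi and CD206pos alone, Ccl2 was at 1.84 (edgeR adjusted p = 0.000402), and all 10 genes were higher. In that setting 4066 of all 13610 genes tested were higher and 4787 lower (65% in either direction). In the order of group means Ccl2 and Ccl7 ran CD206hi, CD206pos, CAF2, CAF1, CD206neg and endothelial. Ranges of neighbours in that order overlapped except between CD206neg and endothelial.

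The call of Ccl7 between macrophages and fibroblasts lay close to the threshold. It was lost in 18 of 38 alternatives, with edgeR adjusted p from 0.000123 to 0.278 over all of them. In those 18 the log2 fold change was 0.80 to 1.08, except for 0.59 without tumour 11, beside 0.98 in the main test. With tumour as a block the adjusted p was 0.0528. It was 0.055 with RLE size factors and 0.0534 without the CD206neg libraries of tumours 6 and 8. It was lost without tumour 5, 6, 8 or 11, with 0.278 without tumour 11. Single libraries whose removal ended the call were CAF1 of tumours 5, 8 and 11, CAF2 of tumours 5, 8 and 10, CD206hi of tumours 6 and 11, CD206neg of tumour 11 and CD206pos of tumours 6 and 11 (edgeR adjusted p = 0.0538 to 0.0915). For Ccl2, the threshold was passed without tumour 6 (edgeR adjusted p = 0.0227), without its CAF1 library (0.0482) or without its CAF2 library (0.0393). Over all its alternatives the adjusted p of Ccl2 ran from 0.000402 to 0.541.

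Endothelial libraries had the lowest levels of Ccl2, Ccl7 and Ccl8. Ccl2 had 200, 33.6, 301, 39.5 and 67.1 CPM in tumours 5, 6, 8, 10 and 11, and Ccl7 had 68.6, 36.2, 184, 18.8 and 27.0 CPM. Tumour 8 was the highest for both genes, and no library reached the lowest fibroblast library. Against fibroblasts Ccl2 was lower by -4.93 ± 0.67 (edgeR adjusted p = 4.71e-07), Ccl7 by -6.31 ± 0.79 (edgeR adjusted p = 1.16e-07) and Ccl8 by -4.93 ± 0.84 (edgeR adjusted p = 1.63e-05) on the log2 scale. Ccl9, at 0.111 to 2.99 CPM, was lower by -1.83 ± 0.51 (edgeR adjusted p = 0.00419), with overlapping ranges. It reached only 0.0963%, 0.209% and 0.306% of its macrophage mean in endothelial cells, CAF1 and CAF2. In the same order the macrophage markers Csf1r and C1qa reached 0.0856%, 0.260% and 0.332%, and 0.0795%, 0.0677% and 0.0391%. The part of macrophage RNA in the Ccl9 difference was not tested.

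In all, 4 of the 10 genes were lower and 0 higher in endothelial cells than in fibroblasts. Over all genes, 22.1% were lower and 23% higher (45.2% in either direction). Ccl12, Ccl22 and Ccl24, below the filter in the fibroblast fit, had at most 12 counts in an endothelial and 29 in a fibroblast library. The comparison says little about these genes. Against endothelial cells all 10 were higher in macrophages, beside 24.7% of all genes higher and 36.5% lower (61.3% in either direction). The median over the 10 genes was 10.12 and over all genes -0.17. Endothelial libraries had no count of Ccl22 or Ccl24. With 3 counts per library as the floor, Ccl22 was at least 38.2-fold lower and Ccl24 at least 224-fold lower than the macrophage mean. These bounds do not hold for each macrophage group. CD206neg averaged 0.541 CPM of Ccl24 and CD206hi 3.23 CPM of Ccl22, beside a floor of 0.338 CPM. The 10 macrophage markers summed to 213 to 609 CPM in endothelial libraries and 7 fibroblast markers to 101 to 1443 CPM. Their part in the low endothelial chemokine levels was not tested.

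Neighbouring genes were compared with each other over the macrophage libraries. Pearson's r of log2 levels over the 15 macrophage libraries was 0.90 for Ccl2 and Ccl7, 0.90 for Ccl6 and Ccl9, 0.95 for Ccl3 and Ccl4 and 0.52 for Ccl8 and Ccl12 after the group means were removed. Over all 15 libraries, group differences included, r was 0.98, 0.97, 0.89 and 0.89 for these pairs. Pairs that are not neighbours ranged widely within groups, and some were as high, with 0.86 for Ccl3 and Ccl7, 0.84 for Ccl4 and Ccl7, 0.81 for Ccl6 and Ccl24 on different chromosomes and 0.01 for Ccl6 and Ccl12. These are descriptions over libraries that share tumours. The CPM ratio of Ccl4 to Ccl3 was 2.47 ± 0.30 in CD206neg (SD, n = 5), 1.73 ± 0.38 in CD206hi and 1.72 ± 0.33 in CD206pos. The ratio of Ccl6 to Ccl9 was 0.901 ± 0.359 in CD206neg, 3.01 ± 1.12 in CD206hi and 3.08 ± 0.66 in CD206pos.

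**Figure D5:**
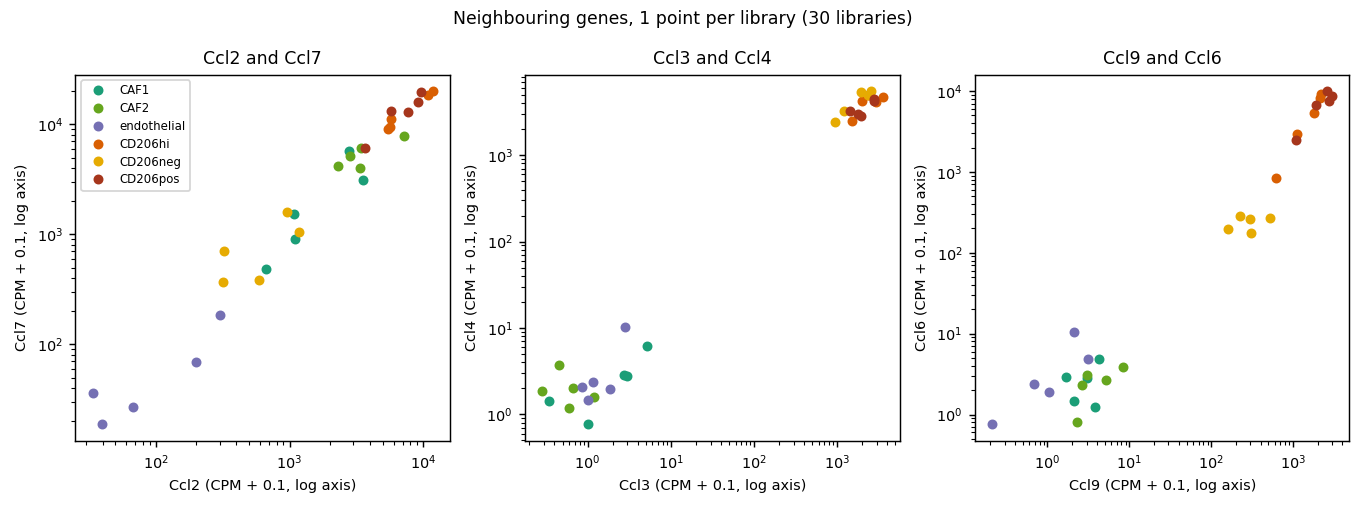
CPM + 0.1 of neighbouring genes against each other (both axes log), 1 point per library, 30 libraries. Ccl2 and Ccl7 lie along 1 line through all 6 populations, while Ccl3 with Ccl4 and Ccl9 with Ccl6 split into macrophages at high and the other populations at low values.

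The promoters of Ccl6 and Ccl9 are shown because the pair varied together between tumours and both genes had a promoter window. Within groups, Ccl2 with Ccl7 (r = 0.90) and Ccl3 with Ccl4 (r = 0.95) varied together as closely. Each line gives the 250 bases before the RefSeq gene start on the coding strand (GRCm38.p6, minus strand, chr11:83593088-83593337 for Ccl6 and chr11:83578637-83578886 for Ccl9). The capitals mark their longest shared run of bases.

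Ccl6: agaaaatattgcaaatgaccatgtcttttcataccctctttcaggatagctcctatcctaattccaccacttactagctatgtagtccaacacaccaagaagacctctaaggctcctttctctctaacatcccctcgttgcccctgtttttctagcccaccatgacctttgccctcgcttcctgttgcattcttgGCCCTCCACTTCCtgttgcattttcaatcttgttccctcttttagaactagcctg
Ccl9: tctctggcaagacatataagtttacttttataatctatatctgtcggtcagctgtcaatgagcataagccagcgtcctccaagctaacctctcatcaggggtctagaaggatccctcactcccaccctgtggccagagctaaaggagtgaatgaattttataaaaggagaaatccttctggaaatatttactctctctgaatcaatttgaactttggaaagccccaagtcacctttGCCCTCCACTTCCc

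The shared run was 13 bases long and began 55 bases before the start of Ccl6 and 14 before that of Ccl9. The longest run shared by any other pair among the 6 genes with a RefSeq window (Ccl3, Ccl6, Ccl8, Ccl9, Ccl12 and Ccl22) was 10 bases. How often windows of other genes share such a run was not counted. Its part in the joint variation of Ccl6 and Ccl9 was not tested. Windows of Ccl2, Ccl4, Ccl7 and Ccl24 were not used here.

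The gene most like each chemokine over the 15 macrophage libraries was taken by Pearson's r. Candidates were the 6853 genes that averaged 10 CPM or more there, with the 10 chemokines themselves left out. For Ccl2 and Ccl7 it was Cd302, a lectin receptor (r = 0.98 and 0.97), although Ccl7 was closer to Ccl2 itself (r = 0.982). For Ccl6 and Ccl9 it was Clec10a (r = 0.99 for both). For Ccl8 and Ccl12 it was Folr2, a folate receptor of tissue macrophages (r = 0.99 and 0.92). Ccl24 was closest to Gda, which encodes guanine deaminase (r = 0.99), and Ccl22 to Dcstamp (r = 0.90). Ccl4 was closest to C1qb (r = 0.95) and Ccl3 to Tmem59 (r = 0.92). With the group means removed, r for these genes lay between 0.67 for Ccl12 with Folr2 and 0.96 for Ccl9 with Clec10a.

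Of 14 receptors and atypical receptors listed, 10 were in the matrix. Ccr1, a receptor of Ccl3, Ccl6 and Ccl9, had a mean of 538 ± 84 CPM in CD206neg (SD, n = 5), against 639 ± 112 CPM for CD206hi and 707 ± 250 CPM for CD206pos. It did not exceed 1.31 CPM in any fibroblast or endothelial library. Ccr2, the receptor of Ccl2, Ccl7 and Ccl12, was highest in CD206pos at 239 ± 66 CPM, with 81.6 ± 16.3 in CD206hi and 24.8 ± 17.6 in CD206neg. The Ccr2 log2 fold change over CD206neg was 1.57 ± 0.40 in CD206hi (edgeR adjusted p = 0.0155) and 3.07 ± 0.42 in CD206pos (edgeR adjusted p = 0.000113).

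In CD206hi against CD206neg, 1 of 7 receptors tested was higher (Ccr2) and 2 lower, beside 6.14% and 3.9% of all genes. The lower ones were Ccr7, which guides cells to lymph nodes (-3.44 ± 0.74, edgeR adjusted p = 0.00474), and Ccr6. In CD206pos against CD206neg 1 was higher (Ccr2) and 1 lower (Ccr6), beside 8.85% and 5.85% of all genes. Ccr6, below 10 CPM on average, is named after its values were seen. Against fibroblasts 7 of 10 receptors were higher in macrophages and 3 lower, beside 30.8% and 37.3% of all genes. The 3 lower were the atypical receptors Ackr1, Ackr2 and Ackr4. Ccrl2, from the same list, was among the 7 higher and is named after its values were seen. It averaged 2392 CPM in CD206hi, 2767 CPM in CD206neg and 2433 CPM in CD206pos. Its mean was 25.6 CPM in CAF1, 16.8 CPM in CAF2 and 13.1 CPM in endothelial cells. Ackr2, which scavenges inflammatory CC ligands, averaged 64.7 ± 21.6 CPM in CAF2 and 34.0 ± 18.5 CPM in endothelial cells, and at most 3.49 CPM in a CAF1 library. Ackr1, a chemokine-binding receptor of venular endothelium, averaged 151 ± 74 CPM in endothelial cells.

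Among the 10 other CC ligands listed, 6 were in the matrix. Ccl11, a ligand of Ccr3 like Ccl24, was the abundant one and lies in the same cluster as Ccl2 and Ccl7. It ranged from 206 to 644 CPM in CAF1, from 726 to 1096 CPM in CAF2 and from 1.37 to 65.1 CPM in endothelial libraries, and did not exceed 1.82 CPM in macrophages. Between macrophages and fibroblasts it differed by -9.96 ± 0.46 (edgeR adjusted p = 1.09e-17), opposite in sign to Ccl8 and Ccl12 of the same cluster. Ccl11 was also lower in CAF1 than in CAF2 (-1.02 ± 0.28, edgeR adjusted p = 0.0241), where 1 other ligand was higher (Ccl17, at a mean of 2.80 CPM and named after its values were seen). None of the 3 other ligands tested within macrophages passed by edgeR.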

How the data were processed

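RNA of 30 sorted bulk libraries was made into cDNA with a SMART-type kit for low input, per the labels' protocols. Per the submitters' processing notes, the tools were HISAT2 2.0.4, Trimmomatic 0.36, DESeq2 1.26 and SAMtools 1.3.1, and the build was mm10. How reads were counted per gene, and with which strand setting, is not given in the sources used here. Values are the deposited raw counts per Entrez gene (14118 genes, smallest total 72 counts, 14104 with a symbol), so genes with lower totals are not analysed here. The authors' normalised values were not used.

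CPM are counts over the library total. Levels per kilobase divide by the union of GENCODE M21 exons. GRCm38.p6 is the assembly of mm10. Tests used edgeR 4.0.16 in R 4.3.3 (filterByExpr, TMM, quasi-likelihood F test, Benjamini-Hochberg over all genes tested, threshold 0.05). The macrophage fit held 15 libraries (11052 genes), the CAF1 and CAF2 fit 10 (12149 genes) and the fit between lineages 30 (13610 genes). A joined side is the mean of its groups on the log2 scale. The SE is the log2 fold change over the square root of F. Scripts were tested on simulated data. Likeness used log2(TMM CPM + 1).

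Libraries were grouped by their labels. For the CD206neg libraries of tumours 6 and 8 the matrix headers say high MHC class II and the labels low, and the labels were used. Each tumour number stands for 1 animal, which pairs its libraries. Correlations of deviations from the group means within a tumour were 0.108 to 0.652 (macrophages), 0.016 to 0.379 (fibroblasts) and 0.0217 to 0.577 (all libraries). No block was used in the main tests.

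Members and lists were chosen with earlier results of these data known. Context genes named are at most 4 per list and comparison, those with the largest called change among genes averaging 10 CPM or more in the higher group. Folds against groups with at most 3 counts per library are not given, except as bounds where all are 0. Floors cover counting error only. Alternatives were tumour as a block, RLE factors, DESeq2 1.42.0, no filter, 50 counts in 5 libraries, libraries and tumours left out, and 1 fit of all 30 libraries. Splitting the fibroblast or macrophage side was added after the data were seen. Some items are not reported here.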

Additional observations from a re-analysis of the deposited data

Results flagged for a closer look

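In 4 of 55 sets of a gene and a group, 1 tumour lay far from the other 4 by Dixon's criterion. Chance alone gives about 1 in 20. Ccl2 in CAF2 was 7197 CPM in tumour 6, against 2313 to 3405 CPM in the others. Ccl4 in endothelial cells was 10.23 CPM in tumour 6, against 1.385 to 2.252 CPM. Ccl12 in CAF1 was 3.261 CPM in tumour 10, against 0.8059 to 1.101 CPM. Ccl22 in CD206hi was 11.83 CPM in tumour 5, against 0.6985 to 1.666 CPM.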

How the results depend on the processing

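Of 38 called tests of single chemokines, 36 kept their call under every alternative run, and the exceptions were Ccl7 and Ccl8 between macrophages and fibroblasts. With CD206neg alone as the macrophage side, Ccl2 (-1.58), Ccl7 (-1.58) and Ccl8 (-0.15) reversed, which follows from the CD206neg levels given above. Over the 28 tests that were not called, the alternatives gave another sign or a value of 0 in 49 cases. Of these, 1 passed the threshold (Ccl2 with CD206neg alone). With tumour as replicate block, 2 chemokines were called in CAF1 against CAF2 (Ccl2 and Ccl7, 0 without it), beside 20.1% of all genes. Ccl7 was lost with it between macrophages and fibroblasts. The block changed no other chemokine call. Without the filter 1 was called in CAF1 against CAF2 (Ccl12). With all 30 libraries in one fit 2 were called (Ccl3 and Ccl12). Both genes were below the filter in the main test. The filter of all 30 libraries also counted the macrophages, where both are high. Beside them, 18.9% and 16.4% of all genes were called. With single libraries or tumours left out, called chemokines numbered 8 to 8 in CD206hi against CD206neg, 7 to 8 in CD206pos against CD206neg, 0 to 1 in CD206hi against CD206pos, 0 to 1 in CAF1 against CAF2, 8 to 10 in macrophages against fibroblasts, 10 to 10 in macrophages against endothelial cells and 4 to 4 in endothelial cells against fibroblasts. The 1 in CAF1 against CAF2 was Ccl3, without CAF1 of tumour 10 or 11 or without tumour 11. DESeq2 gave 5 in place of 4 called in endothelial cells against fibroblasts, adding Ccl24. Endothelial cells against CAF2 alone also gave 5, adding Ccl12. Ccl24 had 0 counts in endothelial and at most 5 in fibroblast libraries. Ccl12 had at most 12 counts in an endothelial and 3 in a CAF2 library. Both fell below the filter with fibroblasts fitted alone, and these calls are not read as differences. Counts over all genes moved more. With the block they were 1791 in place of 1110 genes for CD206hi against CD206neg, 2800 in place of 1625 for CD206pos against CD206neg, and 97 in place of 21 for CD206hi against CD206pos, where DESeq2 gave 83 and the fit of all 30 libraries 36. Without the CD206neg libraries of tumours 6 and 8 the first 2 were 545 and 930. Without tumour 6 or 11 the first was 652 or 535, and without tumour 5, 6, 10 or 11 the second was 1074, 1064, 765 or 818. For CD206hi against CD206pos the count was 0 to 48 with a library or tumour left out. Depth limits Ccl22 and Ccl24 outside macrophages, with at most 5 counts in a library, and Ccl12 in CAF2, with at most 3.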
